A study of Macaca fascicularis with 9 samples.

Results

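Myeloid cluster 7 is the larger of the 2 clusters of myeloid nuclei in a single-nucleus RNA survey of the cynomolgus monkey thalamus. Its members are the nuclei that the authors' table of nuclei names Myeloid and places in cluster 7, and there were 3313 of them among 79994 nuclei in all and 5727 myeloid nuclei. The remaining 2414 myeloid nuclei form cluster 9, from the same animals, and are the comparison used here. Nuclei came from the frozen thalamus of 9 female Macaca fascicularis, 3 per group, and each animal gave 1 droplet library from sorted nuclei. The saline group had 4 intravenous doses of saline given every other week. The ASO group had 1 intrathecal dose of 4 mg of an antisense oligonucleotide (ASO) against MALAT1, a nuclear long noncoding RNA. The OTV group had 4 intravenous doses of OTV:MALAT1 at 30 mpk, every other week. OTV stands for oligonucleotide transport vehicle, a protein that carries the same kind of oligonucleotide and binds the transferrin receptor (gene TFRC) to cross the blood-brain barrier. The thalamus was collected 2 weeks after dosing ended, and no group had an intrathecal injection of saline or an OTV without the oligonucleotide, so route, carrier, dose number and oligonucleotide cannot be told apart in the comparisons between groups. With 3 animals per group, every test below rests on few animals. Animals are called saline 1 to 3, ASO 1 to 3 and OTV 1 to 3, and the numbers do not pair animals across groups.

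Microglia are the resident macrophages of the brain parenchyma. They depend on signalling through CSF1R, the receptor of colony stimulating factor 1, and in the resting state carry the fractalkine receptor CX3CR1 and the nucleotide receptor P2RY12, which senses ATP from damaged cells. On activation they are known to take up debris and oligonucleotides, to lower their resting markers and to raise lysosomal, lipid handling and antigen presentation genes. An antisense oligonucleotide of the kind used against MALAT1 pairs with its target in the nucleus and recruits RNase H, which cuts the RNA.

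The 3 defining markers were present in cluster 7 at the level of cluster 9 and far above that of the other cell types. CSF1R averaged 862 ± 120 CPM (counts scaled to 1e6 UMIs of the same nuclei, mean ± SD over 9 animals) in cluster 7 and 902 ± 102 in cluster 9, against 5.96 ± 2.21 in oligodendrocytes and 6.21 ± 5.13 in astrocytes. CX3CR1 averaged 667 ± 253 CPM in cluster 7 and 721 ± 212 in cluster 9, and P2RY12 averaged 192 ± 79.4 and 232 ± 90.4. A UMI of CSF1R was seen in 87.8% of cluster 7 nuclei, at a median depth of 3222 UMIs, and in 3.61% of oligodendrocytes, at 6016 UMIs. The 22 genes of a list of resting microglial genes that the files hold summed to 11542 to 12378 CPM in the saline animals, 9694 to 13125 in the ASO animals and 9404 to 11903 in the OTV animals. The label therefore matched the markers of most of the cluster, with 1 exception described next.

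A small set of nuclei in cluster 7 carried genes of T and natural killer (NK) cells in place of microglial ones. Counting nuclei with a UMI of at least 3 of 13 T and NK cell genes gave 64 nuclei, 1.93% of the cluster, against 2 of 2414 in cluster 9. CD4, CD3E and IL7R were left out of this count, which was set up after the values were seen, because microglial nuclei also held their UMIs. The 64 nuclei held 0 UMIs of CSF1R and 0 of P2RY12, which allows up to 3 counts in the set. Of CX3CR1 they held 6 UMIs, in 3 nuclei, or 31.1 CPM, against 733 CPM in the other cluster 7 nuclei. The T cell adaptor THEMIS, needed for thymocyte selection, had 318 UMIs in these 64 nuclei and 13 in the remaining cluster 7 nuclei. THEMIS is among the 13 genes of the count, so this gap follows from the choice of nuclei. SKAP1, a T cell adaptor outside the count, had 165 UMIs in the other cluster 7 nuclei and 674 in the 64. Their resting microglial genes summed to 2945 CPM, against 12022 in the other nuclei, and their median doublet score was 0.00154, against 0.000382 in the other cluster 7 nuclei, while the medians of single libraries in cluster 7 ran from 7.32e-05 to 0.00237, with 0.000923 in ASO 3. The highest score among the 64 was 0.00195. By these markers the 64 nuclei went against the label Myeloid.

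These nuclei were unevenly spread over the animals. ASO 3 held 33 of them among 220 cluster 7 nuclei, which is 15.0% (95% exact binomial interval 10.6% to 20.4%, counting error only). ASO 1 held 8 of 229 and ASO 2 held 3 of 278, saline 1 held 10 of 472 and saline 2 held 9 of 414, and OTV 1 held 1 of 879. Saline 3, OTV 2 and OTV 3 held none, which allows up to 1.58% in the smallest of these sets by the same interval. ASO 3 thus stood apart from the other 8 animals in the makeup of the cluster.

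**Figure D1:**
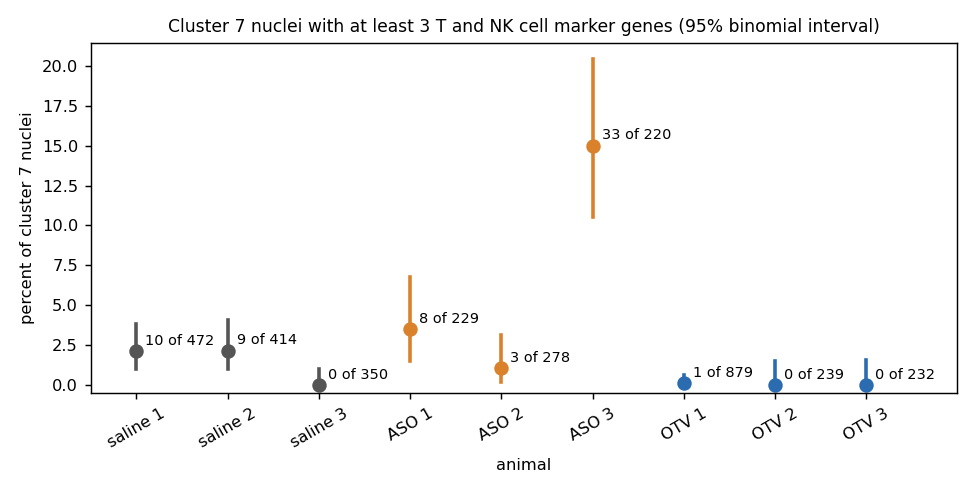
Share of myeloid cluster 7 nuclei with a UMI of at least 3 T and NK cell marker genes in each animal (vertical axis, percent), with the exact 95% binomial interval as a bar and the count beside each point. ASO 3 stands at 15.0% and every other animal is at 3.49% or lower.

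The nuclei per animal and the depth set the precision of what follows. Cluster 7 held 472, 414 and 350 nuclei in the saline animals, 229, 278 and 220 in the ASO animals and 879, 239 and 232 in the OTV animals, with 10388031 UMIs in all. Its sums ran from 309959 UMIs in OTV 3, with a median of 1275 per nucleus, to 2653862 in OTV 1. Cell barcodes were shared with another library in 58 cluster 7 nuclei, and 760 barcodes occurred in more than 1 library of the series. Doublet scores in the deposited table reached 0.824 in the cluster.

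Clusters 7 and 9 differed in depth more than in named genes. The median cluster 7 nucleus held 3762, 3737 and 2923 UMIs in the saline animals, 3394, 4174 and 3131 in the ASO animals and 3076, 2368 and 1275 in the OTV animals. The cluster 9 medians of the same animals were 1.37 to 1.69 times as high, and in each animal at least 94.9% of cluster 7 nuclei fell below its own cluster 9 median. Depth therefore separated the clusters within every library. The clusters were formed from the expression of these same nuclei, so their levels are described here without a test, and the share of myeloid nuclei that fell in cluster 7 (37.5% to 79.7% over the 9 animals) is not compared between groups.

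**Figure D2:**
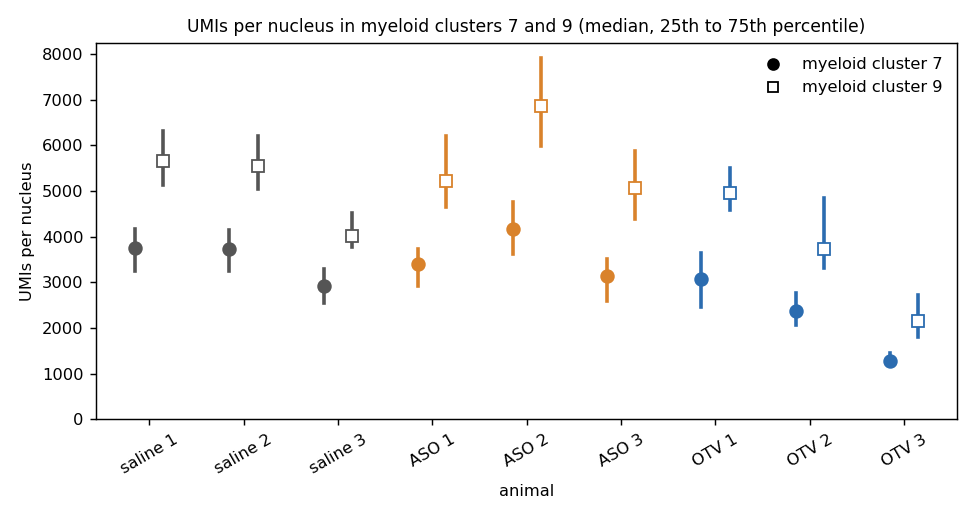
UMIs per nucleus (vertical axis) in myeloid cluster 7 (filled circles) and cluster 9 (open squares) of each animal, as the median with a bar from the 25th to the 75th percentile. The cluster 9 median is higher in all 9 animals, and OTV 3 has the lowest medians, 1275 and 2151 UMIs.

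Few genes differed much in level between the clusters. Among 4233 genes with at least 50 CPM in 1 of them, the median absolute log2 ratio was 0.09, and 8 genes had a mean log2 ratio above 1 over the 9 animals, all of them higher in cluster 7. The transcription factor TOX, which acts in T cell development, averaged 76.8 CPM in cluster 7 and 8.32 in cluster 9, RIPOR2 averaged 60.9 and 5.10, and the T cell adaptor SKAP1 averaged 105 and 11.3. These cluster 7 means rest on ASO 3, with 413, 388 and 556 CPM, while the other 8 animals held 12.3 to 76.9 CPM of TOX, 6.03 to 52.1 of RIPOR2 and 8.67 to 127 of SKAP1. Without the nuclei that carry T and NK cell genes the same genes averaged 15.5, 12.4 and 16.8 CPM in cluster 7, and the number of genes with a mean log2 ratio above 1 was 0. All 3 genes were among the T cell genes of the 64 nuclei, where SKAP1 had a UMI in 64 of 64.

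A myelin gene of oligodendrocytes was also higher in cluster 7. MOG, a protein of central myelin, averaged 74.5 ± 23.0 CPM in cluster 7, 49.1 ± 17.0 in cluster 9 and 847 ± 181 in oligodendrocytes. Cluster 9 held slightly more of several myeloid genes in all 9 animals: RIN3, a guanine exchange factor of endosomes, averaged 98.0 CPM against 69.5 in cluster 7, the antigen presentation chaperone CD74 averaged 165 against 122, and the oxidised LDL receptor OLR1 averaged 279 against 222. The mean log2 ratio of RIN3, cluster 7 over cluster 9, was -0.60.

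MALAT1, the targeted RNA, was lower in all 3 OTV animals than in every saline animal, and among the ASO animals it ranged from the lowest value of the series to the saline range. It made up 3.70%, 3.43% and 3.41% of cluster 7 UMIs in the saline animals. It made up 1.42%, 2.62% and 3.47% in ASO 1, 2 and 3, and 1.88%, 1.93% and 2.08% in the OTV animals, with exact 95% binomial intervals of at most ±0.0503 percentage points. The OTV values lay close together, while the ASO values reached from below the OTV animals into the saline range. The group means were 3.51% ± 0.165, 2.50% ± 1.03 and 1.97% ± 0.103 (SD, n = 3 each), so that the ASO animals kept 71.3% and the OTV animals 56.0% of the saline mean.

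No test on the percentages passed 0.05. An exact two-sided permutation test over the 280 ways to form 3 groups gave p = 0.0893. The exact test between 2 groups gave p = 0.1 for OTV against saline, the smallest that 3 animals against 3 allow, 0.3 for ASO against saline and 0.4 for OTV against ASO. In edgeR's quasi-likelihood fit of all genes, the log2 difference between OTV and saline animals was -0.87 (SE 0.28, adjusted p = 0.0711). Between ASO and saline animals it was -0.54 (SE 0.28, adjusted p = 0.579), and between OTV and ASO animals -0.32 (SE 0.28, adjusted p = 0.461). The OTV difference from saline passed 0.05 in a fit of the 6 compared animals (adjusted p = 0.0237) and without ASO 1 (0.0240) or ASO 3 (0.0427).

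The nuclei with T and NK cell genes held more MALAT1 than the microglial nuclei, 5.01% of their UMIs. Without them ASO 3 held 3.23% and the means were 3.49%, 2.39% and 1.96%, with an exact permutation p over 3 groups of 0.0679. All 3 ASO animals then lay below every saline animal (exact p = 0.1 between these groups). The 2 clusters showed a like share of the saline mean: cluster 9 kept 70.9% in the ASO animals and 56.2% in the OTV animals. Its level was lower than that of cluster 7 in all 9 animals, by 0.119 to 0.560 percentage points. The test of the difference in response between the clusters gave log2 values of 0.01 in the ASO animals relative to saline, -0.02 in the OTV animals relative to saline and -0.03 between the treatments, with no call, and the sign of these values changed with the settings tried.

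Nuclei of ASO 1 fell over a wide range of MALAT1 that no other animal showed. In ASO 1, 61 of 229 nuclei had less than 0.5% and 123 had less than 1%, and the 10th and 90th percentiles of its nuclei were 0.332% and 3.25%. No nucleus of the other 8 animals had less than 0.5%. At 1000 UMIs per nucleus, the coefficient of variation left after removal of counting noise was 0.873 in ASO 1, 0.205 in ASO 2 and 0.357 in ASO 3, against 0.194 to 0.232 in the saline animals and 0.200 to 0.257 in the OTV animals. The groups averaged 0.208, 0.478 and 0.231 (exact permutation p = 0.114), and without ASO 1 the ASO mean was 0.281. Without the nuclei with T and NK cell genes the value of ASO 3 was 0.252, against 0.200 to 0.251 in the OTV animals of the same set. That of ASO 1 was then 0.811, and the p was 0.204. In cluster 9 the coefficient was 0.773 in ASO 1 and 0.151 to 0.246 in the other animals (exact permutation p = 0.468).

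A second measure counted, at equal depth, the nuclei under a MALAT1 level that 10% of the saline nuclei do not reach. The share of such nuclei was 6.14%, 12.6% and 11.4% in the saline animals, 78.2%, 43.5% and 17.3% in the ASO animals and 82.3%, 81.6% and 72.0% in the OTV animals. The groups averaged 10.0% ± 3.42, 46.3% ± 30.5 and 78.6% ± 5.75 (SD, n = 3 each, exact two-sided permutation p = 0.0143). The level was set from the saline nuclei, so the saline mean near 10% follows from it. The groups are therefore not on equal terms in the permutation, and no conclusion is drawn from this p. Most nuclei of each OTV animal thus lay below that saline level. The p rose to 0.0536 without saline 1, to 0.05 without OTV 1 or OTV 2 and to 0.0643 with nuclei thinned to 500 UMIs. In cluster 9, with a level from its own saline nuclei, the groups averaged 8.52%, 40.2% and 70.5% (exact two-sided permutation p = 0.075). The share in cluster 9 of ASO 1 was 82.0%.

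**Figure D3:**
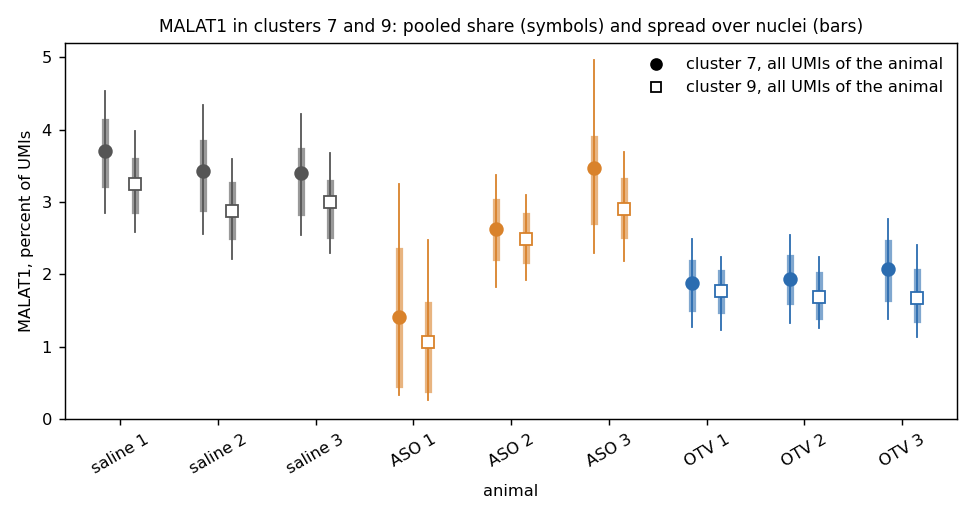
MALAT1 as a percent of UMIs (vertical axis) in cluster 7 (filled circles) and cluster 9 (open squares) of each animal, over all UMIs of the cluster; thick bars run from the 25th to the 75th and thin bars from the 10th to the 90th percentile of single nuclei. The OTV animals lie between 1.67% and 2.08%, and the nuclei of ASO 1 spread from 0.332% to 3.25% in cluster 7.

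Genes of cluster 7 were next compared between the intrathecal ASO and saline. Against saline, 11 genes rose and 8 fell among 10092 tested, 19 in all or 0.188% of the genes tested (0.109% higher and 0.0793% lower, edgeR quasi-likelihood test on summed counts, adjusted p under 0.05), and 12 of the 19 had a gene symbol. DESeq2's Wald test called 88 genes, and edgeR without a filter on low counts called 103. The rising genes included SDHD, a membrane anchor of succinate dehydrogenase, the gene of unsettled function KIAA1549, the centrosomal TACC2 and the junction protein AFDN. The falling ones included HPGDS, the hematopoietic prostaglandin D synthase, PKIB, an inhibitor of protein kinase A, and the small GTPase RHOJ. MALAT1 was not among them.

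SDHD was measured at 19.0, 17.9 and 17.3 CPM in the saline animals and 89.5, 73.5 and 85.0 in the ASO animals. It rose by 2.12 on the log2 scale (SE 0.22, adjusted p = 0.00227, edgeR), and the OTV animals stood with saline at 12.1 to 17.0 CPM. KIAA1549 rose by 2.16 (SE 0.25, adjusted p = 0.00353), from 20.7 to 32.7 CPM in the saline animals to 89.5 to 143 in the ASO animals. Cluster 9 gave 1.62 and 2.53 for these genes. Differences in the other cells of the same animals were smaller and were not tested: oligodendrocytes averaged 15.9 ± 2.62 CPM of SDHD in saline and 20.8 ± 4.45 in ASO animals, and astrocytes 36.9 ± 19.1 CPM of KIAA1549 and 47.6 ± 36.0 (SD, n = 3).

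HPGDS was measured at 273, 428 and 328 CPM in the saline animals and 88.2, 103 and 107 in the ASO animals. It fell by 1.83 on the log2 scale (SE 0.20, adjusted p = 0.00254, edgeR), and the OTV animals kept 280 to 414 CPM. Its level in oligodendrocytes of the saline animals was low, at 1.24 ± 0.381 CPM. PKIB fell from 79.8 to 105 CPM to 20.9 to 26.3 (log2 -1.98, SE 0.20, adjusted p = 0.00227), and RHOJ fell from 44.2 to 84.9 CPM to 5.96 to 8.02 (log2 -3.22, SE 0.36, adjusted p = 0.00264). For these 3 genes the ASO values overlapped neither saline nor OTV.

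Calls of SDHD, KIAA1549, PKIB, HPGDS and RHOJ were kept under all alternatives run. TACC2 rose by 3.17 (SE 0.38, adjusted p = 0.00385) and AFDN by 2.26 (SE 0.30, adjusted p = 0.0107), with calls lost when all sums were thinned to 309959 UMIs for TACC2 (0.151) and, for AFDN, without saline 1 or saline 2 or with only the 6 compared animals in the fit (up to 0.0639). The call of MAP3K9 was lost without saline 1, ASO 1 or ASO 3 and with thinned sums (up to 0.264). That of CHKA was lost without the 64 nuclei with T and NK cell genes, and without saline 1, saline 2, OTV 2 or any ASO animal (up to 0.206). Those of TOP1MT, FLT1 and C11orf80 were lost without most single animals, with the exceptions of saline 2 for TOP1MT, ASO 3 for FLT1, and saline 2 and OTV 3 for C11orf80 (up to 0.122, 0.222 and 0.175). These 3 calls were also lost with only the 6 compared animals, and those of TOP1MT and C11orf80 with thinned sums and over all myeloid nuclei (up to 0.131 for TOP1MT). FLT1, a receptor of vascular endothelial growth factor and a marker of endothelial cells, stood at 0.961 to 2.88 CPM in the saline animals and 10.4 to 36.1 in the ASO animals, and was the one called member of any of the 37 gene lists in this comparison. Other endothelial markers did not pass, and their list summed to 529 to 740 CPM in saline, 722 to 984 in ASO and 268 to 775 in OTV animals. The count of 19 fell to 9 without saline 1 and to 11 without ASO 1, ASO 2 or OTV 2, and 960 genes had an unadjusted p under 0.05.

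**Figure D4:**
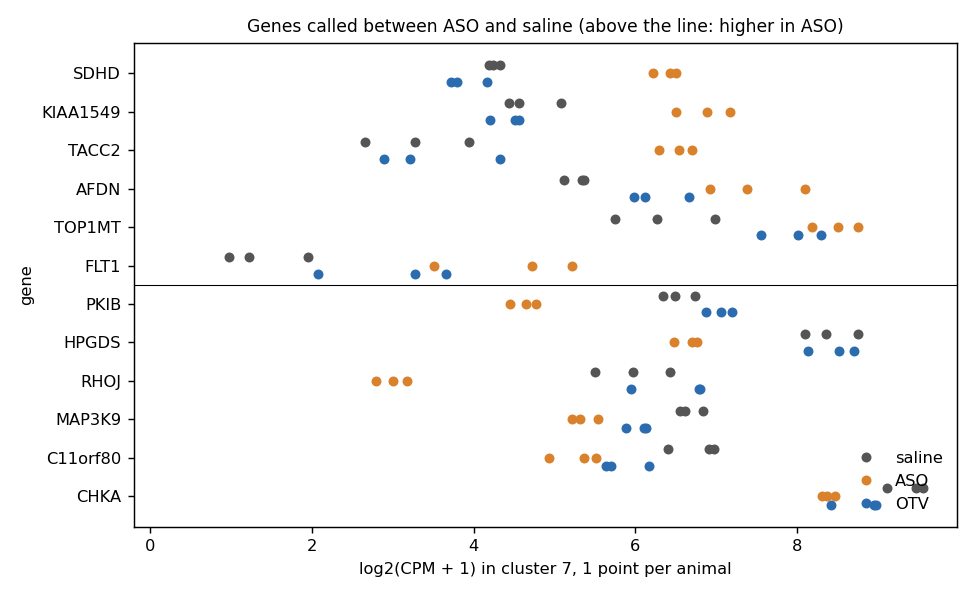
Levels in cluster 7 of the 12 genes with a symbol called between ASO and saline, on the log2(CPM + 1) scale, 1 point per animal, in saline (grey), ASO (orange) and OTV (blue) animals. For SDHD, KIAA1549, PKIB, HPGDS and RHOJ the ASO animals stand apart from both other groups.

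Gene lists of microglial function held 0 called genes in the ASO animals, beside 0.188% called over all genes tested. Resting microglial genes had 0 of 22 tested called, with a median log2 difference of -0.07. Microglial activation genes had 0 of 20 called, 15 of 20 with a positive sign and a median of 0.44, against a median of -0.00095 over all genes tested. Lysosome genes had 0 of 32 called and a median of 0.17. Interferon response genes (0 of 18), innate nucleic acid sensors (0 of 18), cytokines and chemokines (0 of 6) and genes of MHC class II and antigen presentation (0 of 12) had medians between -0.10 and 0.06. Cytosolic ribosomal protein genes had 0 of 30 called, 29 of 30 with a positive sign and a median of 0.51. With 3 animals per group, a change that misses the call is not shown to be absent.

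The OTV animals differed from saline in many more genes. Here 433 genes rose and 562 fell, 995 of 10092 tested, or 9.86% (4.29% higher and 5.57% lower, edgeR, adjusted p under 0.05). The named genes that fell included receptors (the opioid receptor OPRM1, GPR18), the iron oxidase CP (ceruloplasmin) and the NF-kB inhibitor interacting protein NKIRAS1. Those that rose included RNAs of other brain cells (CDH19, GRIA4, TRPM3, MOBP) and mitochondrial RNAs (ND5). They also included TP53I13 and PLXNB2, which in the OTV animals stood higher in this myeloid cluster than in oligodendrocytes. The 20 genes named were chosen, 10 in each direction, by smallest adjusted p among those with no overlap between OTV and saline animals. All 20 kept their call under all alternatives run.

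Among the genes that fell, OPRM1, the mu opioid receptor, was measured at 238, 231 and 242 CPM in the saline animals and 47.9, 43.4 and 19.4 in the OTV animals. It fell by 2.58 on the log2 scale (SE 0.25, adjusted p = 0.00033, edgeR), and the ASO animals stood at 264 to 416 CPM. The log2 difference in cluster 9 was -2.02. Oligodendrocytes of the saline animals held 4.04 ± 1.61 CPM of OPRM1 and their astrocytes 11.8 ± 7.39, while neurons were not examined for this gene. MS4A5, a member of the family of four-span membrane proteins, was at 46.6, 51.1 and 67.3 CPM in the saline and 2.64, 6.94 and 6.45 in the OTV animals (log2 -3.75, SE 0.39, adjusted p = 0.000439). Neither gene overlapped between OTV and saline animals, which was a condition for naming it here.

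CP stood at 52.4, 21.2 and 51.0 CPM in the saline animals and at 0.754, 1.73 and 0 in the OTV animals. It fell by 5.46 on the log2 scale (SE 0.65, adjusted p = 0.00103). GPR18, a receptor for lipid mediators, fell from 30.8 to 69.6 CPM to 1.73 to 5.65 (log2 -3.48, SE 0.43, adjusted p = 0.00129). The receptor tyrosine kinase EPHB4 fell from 81.7 to 93.5 CPM to 9.68 to 19.6 (log2 -2.38), and the zinc transporter SLC39A13 from 245 to 375 CPM to 38.7 to 82.9 (log2 -2.30), both at an adjusted p of 0.000439.

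NKIRAS1, FGL1 and RNF121 fell as well. For NKIRAS1 and FGL1 the other cell types given here had lower values too in the OTV animals. NKIRAS1 was at 277, 198 and 168 CPM in cluster 7 of the saline animals and 36.6, 22.5 and 41.9 in the OTV animals (log2 -2.71, SE 0.25, adjusted p = 0.000275). Its OPC level (oligodendrocyte precursor cells) averaged 118 ± 5.30 CPM in saline and 28.1 ± 4.64 in OTV animals, and its astrocyte level 101 ± 7.11 and 29.4 ± 2.63 (SD, n = 3). FGL1, a secreted fibrinogen-like protein, fell by 2.59 (SE 0.27, adjusted p = 0.000439), while oligodendrocytes held 130 ± 12.4 CPM in saline and 21.8 ± 5.77 in OTV animals. The lower values of both genes were therefore not limited to the myeloid nuclei.

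Among the genes that rose, TP53I13, a p53-inducible gene, was measured at 51.8, 65.7 and 38.5 CPM in the saline animals and 205, 206 and 252 in the OTV animals. It rose by 2.04 on the log2 scale (SE 0.22, adjusted p = 0.000489, edgeR) and by 1.96 in cluster 9. PLXNB2, a receptor of semaphorins and of progranulin, was at 47.8 to 62.3 CPM in the saline and 135 to 190 in the OTV animals (log2 1.47, SE 0.19, adjusted p = 0.00131). Oligodendrocytes held little of either, 2.90 ± 0.492 and 2.15 ± 0.328 CPM in the OTV animals. CTBP1, a corepressor of transcription, rose by 1.54 (SE 0.19, adjusted p = 0.00131) and NXF1, the main export receptor of mRNA, by 1.82 (SE 0.24, adjusted p = 0.00147).

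CDH19, GRIA4, TRPM3 and MOBP rose from low values, and each stood higher in another cell type. CDH19, a cadherin of the oligodendrocyte lineage, was at 10.6 to 21.2 CPM in the saline and 88.4 to 109 in the OTV animals (log2 2.75, SE 0.29, adjusted p = 0.000439), and at 440 ± 147 CPM in oligodendrocytes of the OTV animals. GRIA4, an AMPA receptor subunit, was at 11.5 to 21.2 and 93.8 to 149 CPM, and at 2525 ± 135 in OPCs of the OTV animals. TRPM3, a cation channel, was at 5.18 to 14.4 and 71.2 to 225 CPM, and at 4738 ± 1120 in their astrocytes. For the myelin gene MOBP the values were 17.3 to 21.2 and 71.6 to 155 CPM, and 591 ± 174 in oligodendrocytes.

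Markers of other cell types were summed in the same nuclei. The 12 oligodendrocyte markers that the files hold, all with UMIs in the cluster, summed to 1045 to 1257 CPM in the saline, 1421 to 2461 in the ASO and 1994 to 2871 in the OTV animals. The OTV and ASO ranges overlapped. Of the 12, MOBP, ST18 and UGT8 rose, beside 4.29% higher over all genes, and none fell (the calls of ST18 and UGT8 were lost without saline 1, saline 2, OTV 2 or OTV 3, and that of ST18 also without OTV 1 or any ASO animal, up to 0.141 and 0.0768, and that of ST18 also without a filter or with only the 6 compared animals), and all 12 had a positive sign (median 0.92). The astrocyte markers (11 in the files) summed to 1977 to 2847 CPM in the saline animals, 810 to 1158 in the ASO animals and 858 to 1672 in the OTV animals, with 0 of 8 called for OTV against saline. Of the 8 tested, 6 had a positive sign (median 0.47), against the direction of the sum. OPC markers summed to 169 to 626 CPM in the saline, 157 to 322 in the ASO and 435 to 649 in the OTV animals, with 0 of 8 called (median 0.88). Whether RNA from other nuclei has a part in the called genes was not tested. Without nuclei in which oligodendrocyte markers exceed 0.3% of UMIs, 1039 genes were called, against 995. This limit kept 626 of 879 nuclei in OTV 1 and 133 of 232 in OTV 3. It does not act on markers of other cell types or on RNA spread over all nuclei. No conclusion about such RNA is therefore drawn from the count.

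**Figure D5:**
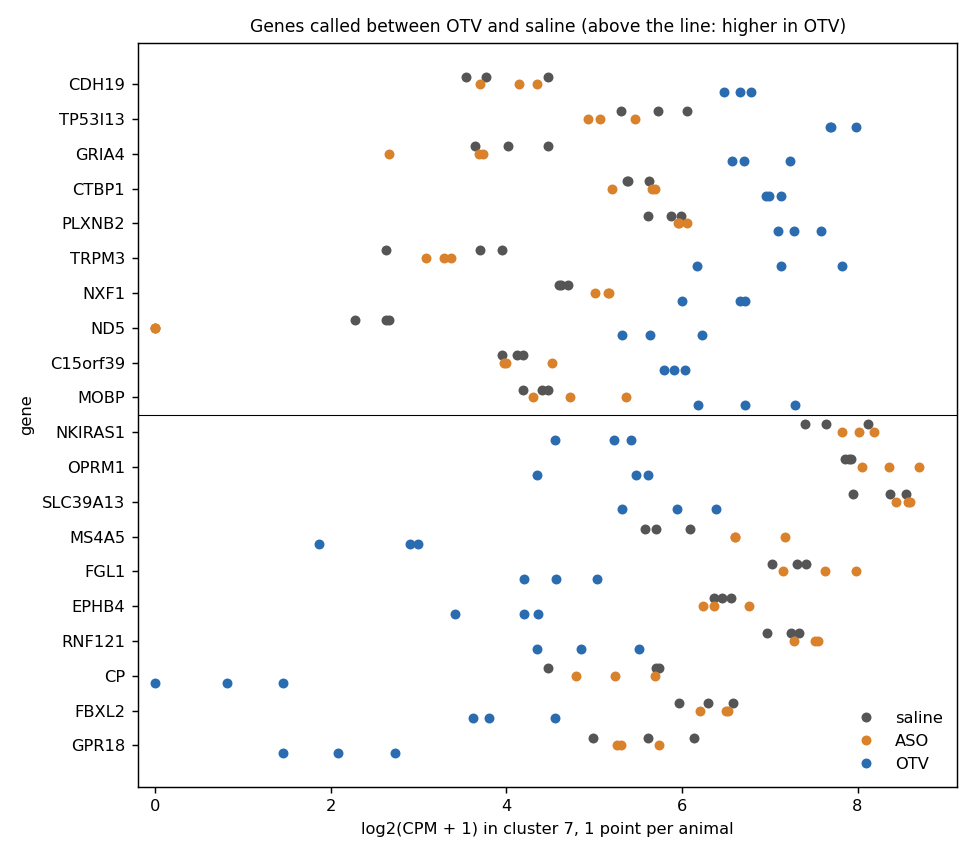
Levels in cluster 7 of the 20 genes named between OTV and saline, 10 in each direction, on the log2(CPM + 1) scale, 1 point per animal, in saline (grey), ASO (orange) and OTV (blue) animals. Genes were taken by smallest adjusted p among called genes without overlap between OTV and saline animals. The separation of these groups in all 20 genes therefore follows from the choice.

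Among resting microglial genes, 2 of 22 tested fell in the OTV animals and 0 rose, with a median of -0.24. These 2 of 22 lie near the background, since 5.57% of all genes tested were lower and 9.86% were called. GPR34, a lysophosphatidylserine receptor of microglia, was measured at 691, 745 and 506 CPM in the saline animals, 625, 516 and 408 in the ASO animals and 261, 156 and 100 in the OTV animals. It fell by 1.87 on the log2 scale against saline (SE 0.30, adjusted p = 0.00598, edgeR). CX3CR1 was at 976, 848 and 837 CPM in the saline, 636, 943 and 592 in the ASO and 513, 427 and 229 in the OTV animals, and fell by 1.19 (SE 0.27, adjusted p = 0.0232). The OTV animals did not overlap saline for either gene. The call of CX3CR1 was lost without saline 1, saline 2 or OTV 2 and without a filter on low counts (adjusted p up to 0.0775).

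Transcription factors of microglia had 2 of 10 lower: MEF2A, a factor of the microglial enhancer program, by 0.60 (adjusted p = 0.0472) and ELF1, a factor of the ETS family, by 0.65 (0.0145). Both calls were lost without saline 1, saline 2 or OTV 2, and that of MEF2A also without OTV 3 or any ASO animal (up to 0.0609 for ELF1 and 0.181 for MEF2A). Of 8 complement genes, C1QC, a chain of C1q, fell by 1.55 and CD46, an inhibitor of complement on the cell's own surface, by 0.76. C1QC's call was lost without saline 1, saline 2, OTV 2 or OTV 3 and that of CD46 without OTV 2 (up to 0.0846 and 0.0628). Activation genes had 1 of 20 higher, the lysosomal protease CTSB, by 0.78, a call lost without saline 1, saline 3 or any OTV animal (up to 0.112). With only the 6 compared animals the calls of MEF2A, CTSB and C1QC were lost, as were that of MEF2A with thinned sums and that of C1QC without a filter (up to 0.0919 for C1QC). Genes of MHC class II and antigen presentation had 0 of 12 called. Beside these small counts stand 9.86% called over all genes tested, 4.29% higher and 5.57% lower.

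Some lists of signalling and innate immune genes had 1 or 2 members that fell. Of 11 genes of Fc receptors and their signalling 1 fell, VAV3. Of 18 cytokine and growth factor receptors 2 fell, IFNGR1 and CX3CR1. These small counts stand beside 5.57% lower over all genes tested and are not read as a result about the lists. VAV3, an exchange factor downstream of Fc and integrin receptors, was at 2950 to 4183 CPM in the saline animals and 1469 to 1726 in the OTV animals (log2 -1.10, SE 0.20, adjusted p = 0.00730). IFNGR1, a chain of the interferon gamma receptor, was at 687 to 789 and 310 to 488 CPM (log2 -1.01, SE 0.19, adjusted p = 0.00802). These 2 calls were kept under all alternatives run.

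Of 18 innate nucleic acid sensors and their regulators, IRAK3, an inhibitor of Toll-like receptor signalling, fell by 0.73 (adjusted p = 0.0451), a call lost without saline 1, saline 2, ASO 1, OTV 2 or OTV 3 (up to 0.169). Of 6 cytokines and chemokines, IL6 fell by 1.83 from 20.6 to 27.9 CPM (adjusted p = 0.0201), lost without saline 1, OTV 1 or OTV 3 (up to 0.0708). The NF-kB pathway had 0 of 12 called. Of 19 genes of phagocytosis and scavenging, the receptor kinase MERTK, which takes up dying cells, fell by 0.84 and LRP1, a receptor for many ligands, rose by 0.52, and both calls were lost without saline 1, saline 2, OTV 2 or OTV 3. The MERTK call was also lost without saline 3, and that of LRP1 without ASO 1 or OTV 1 (up to 0.144 and 0.136). Both were lost with only the 6 compared animals, and that of LRP1 without a filter (up to 0.170 for LRP1). These counts stand beside 9.86% called and 5.57% lower over all genes, and 1 of 18 is near the latter share.

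Among iron handling genes 2 of 14 fell and among p53 targets 1 of 13, beside 5.57% lower over all genes tested. Besides CP, HMOX1, which breaks down heme, fell by 1.84 (SE 0.31, adjusted p = 0.00506), from 39.7 to 49.1 CPM in the saline animals to 6.94 to 15.4, and no other of the 14 iron genes was called (median -0.46). TFRC, the receptor that OTV binds, was at 28.8, 27.9 and 25 CPM in the saline, 42.8, 28.0 and 52.2 in the ASO and 27.1, 27.7 and 51.6 in the OTV animals. Its log2 difference for OTV against saline was 0.24 (SE 0.31, adjusted p = 0.690), and the groups overlapped. Of 13 p53 targets, TP53I3, an oxidoreductase, fell from 12.7 to 16.3 CPM to 1.51, 0 and 0 (adjusted p = 0.00346).

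Nuclear speckle and splicing genes, which work in the compartment where MALAT1 resides, had 6 of 28 higher and 1 lower, with a median of 0.34. SRRM2, a scaffold of speckles, was at 399, 345 and 380 CPM in the saline animals and 626, 820 and 981 in the OTV animals. It rose by 1.07 on the log2 scale (SE 0.17, adjusted p = 0.00428, edgeR), a call kept under all alternatives run. Its partner SON rose by 0.73, the splicing factor U2AF2 by 0.82 and LUC7L by 0.87. All 3 calls were lost without saline 1 or OTV 2, those of SON and LUC7L also without saline 2 or OTV 3, and that of SON without saline 3 or ASO 1 (up to 0.0982 for SON). With only the 6 compared animals the calls of SON and LUC7L were lost, and with thinned sums that of LUC7L (up to 0.0983). These 7 of 28 stand beside the 9.86% called over all genes, as a description of the list.

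Mitochondrial RNAs rose in the OTV animals. The 13 mitochondrial genes in the files summed to 57.7 to 233 CPM in the saline animals, 1.34 to 11.4 in the ASO animals and 728 to 1495 in the OTV animals, so no group overlapped another. Against saline, 8 of 10 tested rose in the OTV animals and none fell, while 0 of 10 were called in the ASO animals (edgeR). Over all genes 4.29% were higher. The filter on low counts passes a gene that the animals of a single group hold in sufficient number. Mitochondrial genes could thus enter the test through the OTV animals, where they were highest. The 8 of 10 is therefore not on equal terms with the share over all genes, and no conclusion is drawn from setting them side by side. COX3, a subunit of cytochrome c oxidase, was at 49.5, 53.1 and 19.2 CPM in the saline, 0, 5.25 and 1.49 in the ASO and 486, 236 and 345 in the OTV animals (OTV against saline log2 3.09, SE 0.45, adjusted p = 0.00503). The other cells of the same animals had a like order: oligodendrocytes averaged 34.7 ± 24.7, 2.02 ± 0.710 and 303 ± 167 CPM of COX3, and astrocytes 43.4 ± 25.9, 1.41 ± 0.743 and 377 ± 248 (SD, n = 3). Among cytosolic ribosomal protein genes (30 tested, median -0.30), RPS6 fell by 1.68 (SE 0.21, adjusted p = 0.00131) and RPLP0 by 1.37, and RPL4 rose by 1.07, a call lost without saline 1, saline 2 or OTV 1 (up to 0.0682) and with thinned sums (0.0861). These 2 of 30 lower and 1 of 30 higher lie near the shares over all genes tested, 5.57% lower and 4.29% higher.

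The count of 995 genes rested on several animals. It was 380 without saline 1, 406 without saline 2, 438 without OTV 2 and 521 without OTV 3, and 474 with all sums thinned to 309959 UMIs.

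OTV and ASO animals differed in 1537 genes of cluster 7, 737 higher and 800 lower in the OTV animals, or 15.2% of 10092 tested (7.3% higher and 7.93% lower, edgeR, adjusted p under 0.05). The count was 747 without ASO 1, 964 without ASO 2, 793 without OTV 2 and 988 without OTV 3. This comparison uses the same animals as the 2 above, so genes that moved in ASO alone or OTV alone return here. CD28, a costimulatory receptor known from T cells, was at 37.4, 36.5 and 37.5 CPM in the saline animals, 97.6, 74.4 and 76.0 in the ASO animals and 3.01, 12.1 and 3.23 in the OTV animals. It was lower in OTV than in ASO animals by 3.96 on the log2 scale (SE 0.41, adjusted p = 0.000224, edgeR). The 3 groups did not overlap one another, although a gap between OTV and ASO was a condition for naming CD28. Cluster 9 showed a like order with means of 35.4, 79.9 and 10.1 CPM.

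UNC5C, a netrin receptor, was at 37.4 to 95.2 CPM in the saline, 11.9 to 24.5 in the ASO and 214 to 261 in the OTV animals, and was higher in OTV than in ASO animals by 3.62 (SE 0.39, adjusted p = 0.000463). Oligodendrocytes held 1091 to 1238 CPM of it on average in OTV and saline animals. PKIB, HPGDS and RHOJ were higher in OTV than in ASO animals by 2.46, 1.84 and 3.74, and SDHD was lower by 2.44. ND5 had 0 UMIs in cluster 7 of all 3 ASO animals and 38.8 to 74.2 CPM in the OTV animals. All 20 genes named in this comparison, again chosen among genes without overlap between the compared groups, kept their call under all alternatives run.

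Of the gene lists in this comparison, resting microglial genes had 2 of 22 lower (GPR34 and P2RY13, lost without OTV 2 or without a filter and, for P2RY13, also without saline 1, saline 2, ASO 1 or ASO 2 or with only the 6 compared animals, up to 0.0549 and 0.147) and 0 higher, activation genes 0 of 20 called, and speckle and splicing genes 6 of 28 higher and 1 lower. Over all genes tested, 15.2% were called, 7.3% higher and 7.93% lower, and the resting microglial count lies near that share. Cytosolic ribosomal protein genes had 6 of 30 lower and 0 higher, with a median of -0.84. Iron handling genes had 4 of 14 lower and 0 higher, namely CP, HMOX1, IREB2 and HFE. Without OTV 2 CP alone of these kept its call. The call of HMOX1 was also lost without saline 1, saline 2, ASO 2, ASO 3 or OTV 3, with DESeq2's Wald test, with only the 6 compared animals, with thinned sums and with a stricter limit on oligodendrocyte markers (up to 0.116), that of HFE without saline 1, OTV 1 or any ASO animal (up to 0.134), and that of IREB2 without ASO 1 or with thinned sums (up to 0.103). Mitochondrial genes had 10 of 10 higher. They could pass the filter on low counts through the OTV animals, where they were highest, so this count is not compared with the share over all genes. The same medians in cluster 9 were -0.61 for ribosomal genes and -0.32 for iron genes, beside -0.03 over all of its genes tested.

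The responses of clusters 7 and 9 were tested against each other in 1 fit of 18 sums, with the animal as a block. The difference in response passed an adjusted p of 0.05 (edgeR) in 7 of 10972 genes when ASO was set against saline (0.0638%), in 1 when OTV was (0.00911%) and in 13 between OTV and ASO (0.118%). For comparison, the counts within cluster 9 were 47 of 11263 (0.417%), 777 (6.9%) and 1575 (14%). Fitting without the block in edgeR gave 0 genes in all 3 contrasts, with 102, 142 and 209 genes at an unadjusted p under 0.05, and limma on the differences within animals also gave 0, with 330, 791 and 794.

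The 7 genes of the ASO contrast were GPRIN3, EPHB1, SYTL3, ACOXL, CD4, PDE7B and SERPINB9, all with a more positive response in cluster 7. SYTL3, a synaptotagmin-like protein of secretory vesicles, had 80 UMIs in cluster 7 and 5 in cluster 9 of ASO 3, against 4 and 4 in ASO 1 and 3 and 4 in ASO 2. GPRIN3 had 105 and 10 UMIs in ASO 3, against 15 and 1 in ASO 1. The 64 nuclei with T and NK cell genes held 144 UMIs of GPRIN3 and 120 of SYTL3, against 92 and 238 in all other cluster 7 nuclei. Without these nuclei 1 gene passed in place of 7, EPHB1, a receptor tyrosine kinase with 0 UMIs in the 64 nuclei, and without ASO 3 edgeR called 0, while 463 genes had an unadjusted p below 0.05. The differences of the 7 genes without ASO 3 ran from 0.50 for SYTL3 to 5.67 for CD4, with 4.32 for GPRIN3 and 3.50 for EPHB1. The value of CD4 then rested on few counts, 5 and 3 UMIs in cluster 7 of ASO 1 and ASO 2 and 0 and 0 in their cluster 9.

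In the OTV contrast the gene was PSD3, an exchange factor of the small GTPase ARF6. It had 98, 133 and 139 UMIs in cluster 7 of the saline animals and 439, 134 and 84 in the OTV animals, and a fitted response 1.07 larger than that of cluster 9 (SE 0.20, adjusted p = 0.00685). The mean level was 92.7 CPM in saline and 223 in OTV animals in cluster 7, and 113 and 125 in cluster 9, with 1191 in oligodendrocytes of the saline animals. The call was lost without saline 2 or OTV 2 and with thinned sums (adjusted p 0.698, 0.157 and 0.512). MDGA2, an adhesion protein of the oligodendrocyte lineage and of neurons, was one of 2 genes with a more positive response in cluster 7 in the OTV against ASO contrast (0.72, SE 0.14, adjusted p = 0.00674), a call lost without ASO 1 (0.262). The other was a feature without a symbol.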

How the data were processed

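Single nuclei from the thalamus of 9 animals were profiled with 10x droplet RNA sequencing. The authors deposited 1 matrix of UMI counts over the nuclei of all 9 animals and a table that gives each nucleus its animal, with cluster numbers, cell types, a doublet score and the percent of ribosomal UMIs. The doublet score and the percent of ribosomal UMIs are the authors' deposited values. Cell Ranger 6.1.2, Seurat 4 and the build GRCh38.p13 are named in the submitters' processing notes without a role, while the features carry macaque gene identifiers, per the file headers. Of 29128 features, 14893 had a symbol, and features without one were tested but not named. The labels' extraction text speaks of mouse brain, although the samples are labelled as macaque.

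Deposited counts were summed per animal over the nuclei of each cluster, since nuclei are not replicates. Sums were tested with edgeR 4.0.16 (quasi-likelihood, robust, TMM, filterByExpr, Benjamini-Hochberg adjustment over all genes tested), with all 9 animals in 1 fit. The difference in response between clusters came from 18 sums with the animal as a block. SE is the absolute log2 difference divided by the root of F. CPM are counts scaled to 1e6 UMIs of that cluster's nuclei. MALAT1 in single nuclei was compared after thinning to 1000 UMIs each. Percentages were compared with exact two-sided permutation tests. Figures use a pseudocount of 1 CPM. Up to 10 genes in each direction were named by smallest adjusted p. They had to be called, carry a symbol and show no overlap in CPM between the animals of the compared groups. From each gene list up to 4 members per contrast could be named as well, called ones first by smallest p and then the most abundant. The members and lists were chosen with earlier results of these data known. Alternatives were DESeq2 1.42.0, no filter, only 6 animals, thinned sums, limits on doublet scores and oligodendrocyte markers, all myeloid nuclei, no T and NK nuclei, limma 3.58.1 and each animal left out. The scripts were tested on simulated data. The libraries are 1 per animal, so p-values measure the spread between animals. Some named genes are not reported here. No doublets were removed here beyond the authors' own filters, which the sources used here do not describe.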

Additional observations from a re-analysis of the deposited data

Results flagged for a closer look

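For 18 results, the test of the difference in response between clusters 7 and 9 of the same animals passed an adjusted p of 0.05 (edgeR, animal as a block). Values are log2 responses in cluster 7 minus those in cluster 9. For ASO against saline they were 4.28 for GPRIN3, 3.76 for EPHB1, 3.40 for SYTL3, 3.39 for ACOXL, 3.39 for CD4, 1.90 for PDE7B and 2.56 for SERPINB9. For OTV against saline the value was 1.07 for PSD3. For OTV against ASO they were -5.32 for GPRIN3, -3.20 for EPHB1, -3.80 for SYTL3, 0.72 for MDGA2, -3.60 for BTBD11, -0.76 for PARP8, -4.12 for RIPOR2, -5.54 for KLRK1, -3.98 for SYTL2 and -4.56 for CD96.

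UMIs of several of these genes lay in the 64 nuclei with T and NK cell genes: 348 of RIPOR2, 314 of PARP8, 178 of BTBD11, 144 of GPRIN3, 128 of KLRK1, 120 of SYTL3, 114 of SYTL2 and 89 of CD96. The other cluster 7 nuclei held 92, 2205, 46, 92, 12, 238, 19 and 35 UMIs of these genes in the same order. For PARP8 and SYTL3 most UMIs thus lay outside the 64 nuclei. CD96 is itself among the genes by which the 64 nuclei were picked. Without these nuclei the calls of EPHB1 in both contrasts, PSD3 and MDGA2 were kept. The calls of GPRIN3 and SYTL3 in both contrasts and those of CD4, PDE7B, SERPINB9, BTBD11, PARP8 and RIPOR2 were lost. The value of CD4 stayed at 2.82. The others were 1.06 and -1.47 for GPRIN3, 0.29 and -0.22 for SYTL3, 0.68 for PDE7B, 1.14 for SERPINB9, 1.20 for BTBD11, -0.42 for PARP8 and -1.14 for RIPOR2. ACOXL, KLRK1, SYTL2 and CD96 no longer passed the filter on low counts. Without ASO 3 the calls of PSD3, MDGA2 and, for OTV against ASO, GPRIN3 were kept, and all others listed here were lost. A lost call did not always go with a smaller value, but without ASO 3 some of these values rest on few UMIs. In ASO 1 and ASO 2 CD4 had 5 and 3 UMIs in cluster 7 and 0 and 0 in cluster 9. GPRIN3 had 15 and 1 in cluster 7 and 1 and 0 in cluster 9 of these animals. Without ASO 3 the values for ASO against saline were 4.32 for GPRIN3, 3.50 for EPHB1, 5.67 for CD4, 2.63 for ACOXL, 1.45 for SERPINB9, 1.18 for PDE7B and 0.50 for SYTL3. For OTV against ASO they were -2.93 for EPHB1, -1.89 for BTBD11 and -0.90 for SYTL3. In the 64 nuclei EPHB1 had 0 UMIs and CD4 had 6. EPHB1 had 1, 3 and 32 UMIs in cluster 7 of the ASO animals and 1, 0 and 10 in their cluster 9.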

How the results depend on the processing

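Of 154 called results for single named genes, 73 kept their call under every alternative and 81 lost it under at least 1. Leaving out 1 animal gave 9 to 25 called genes for ASO against saline, 380 to 1363 for OTV against saline and 747 to 1855 for OTV against ASO, and for the difference between clusters 0 to 25, 0 to 20 and 4 to 37. ASO against saline gave 88 genes with DESeq2's Wald test, 103 without a filter, 30 without the highest doublet scores and 30 with a stricter limit on oligodendrocyte markers. OTV against saline gave 474 with thinned sums and 1522 over all myeloid nuclei, and OTV against ASO 872 and 2597. The difference between clusters gave 0, 0 and 0 genes with no replicate block, 0, 0 and 0 with limma, 13, 2 and 24 without a filter, 1, 2 and 5 without T and NK nuclei, and 0 for OTV against saline with thinned sums.

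No analysis that pairs animals across treatment groups was possible, because replicate numbers follow accession order and pair no animals across groups. MALAT1 for OTV against saline passed the threshold with DESeq2 (-0.87, adjusted p = 0.0207), without a filter (-0.96, 0.00549) and with 6 animals (-0.88, 0.0237). Leaving out 1 animal, it ranged from -0.91 to -0.83, from -0.84 to -0.26 for ASO against saline and from -0.62 to -0.038 for OTV against ASO.

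Signs reversed for MALAT1's difference between clusters. For ASO against saline it was -0.022 with no replicate block, -0.047 without a filter, -0.039 without T and NK nuclei and -0.075 to 0.085 leaving out 1 animal. For OTV against saline it was 0.0073 with thinned sums and -0.072 to 0.039 leaving out 1 animal. For OTV against ASO it was 0.000118 with no replicate block, 0.033 without a filter, 0.039 without T and NK nuclei and -0.11 to 0.061 leaving out 1 animal. TFRC for OTV against saline ranged from -0.024 (without OTV 3) to 0.45 leaving out 1 animal, and BTBD11's difference between clusters for OTV against ASO turned from -3.60 to 1.20 without T and NK nuclei. The spread of MALAT1 between nuclei gave an exact p of 0.0714 at 500 UMIs, where the OTV mean lay below saline, and 0.00714 to 0.371 leaving out 1 animal. The share of low nuclei, with its level set from the saline nuclei, gave 0.0643 at 500 UMIs and 0.00357 to 0.0536 leaving out 1 animal. The cause was not tested. Depth limits OTV 3 most, with 309959 UMIs in its sum.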

Other observations

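CD4, a coreceptor of T cells that macrophages also carry, divided the saline animals in both clusters. It was at 203, 2.65 and 177 CPM in cluster 7 and at 226, 6.82 and 174 CPM in cluster 9 of saline 1, 2 and 3. In the ASO and OTV animals it was at 11.9 CPM or lower in both clusters. Leaving out the nuclei with T and NK cell genes, cluster 7 of the saline animals held 207, 2.70 and 177 CPM.

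AIM2, a sensor of cytosolic DNA, was higher in all 3 ASO animals than in saline without passing the test. It was at 365, 107 and 549 CPM in the saline, 663, 960 and 690 in the ASO and 168, 574 and 678 in the OTV animals (ASO against saline log2 1.13, SE 0.66, edgeR adjusted p = 0.666). OLR1 was at 222, 146 and 76.0 CPM in the saline animals and 535, 333 and 307 in the ASO animals (log2 1.33, SE 0.47, adjusted p = 0.432).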
